A study of Mus musculus with 14 samples.

Results

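p53 is a transcription factor that is kept scarce by the ubiquitin ligase MDM2 and accumulates after DNA damage, when it raises genes that halt the cell cycle, repair DNA or kill the cell. Germinal centre B cells divide fast and cut their own antibody genes, and in these cells the repressor BCL6 is known to hold down the p53 gene and its target Cdkn1a. The acetyltransferases CREBBP and EP300 are known to acetylate p53 and to serve as its coactivators. The values described here are those of p53 and its target genes, a list of 10 genes given by name (Trp53, Mdm2, Ccng1, Cdkn1a, Gadd45a, Sesn1, Zmat3, Aen, Phlda3 and Trp53inp1), in B cells of mice with 2, 1 or 0 floxed alleles of Crebbp. Members were all probe sets that the platform annotation assigns to 1 of these genes alone, which gave 21 of the 34945 single-gene probe sets on the array, for 9 of the 10 genes. No probe set was named for Trp53 alone in the annotation used, so its own transcript was not analysed here. Of the 9 genes, 8 had a probe set above the filter on dim signals (mean log2 intensity above 6.43) and were tested among 10225 genes, while Phlda3 was below it.

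The cells were B220+CD95+PNA+ germinal centre B cells sorted from spleen, and each of the 14 mice gave 1 array (an Affymetrix mouse genome array). Knockout mice (KO, genotype Crebbpfl/fl Cg1-Cre) had 2 floxed alleles (n = 5, 3 males), heterozygous mice (HET, Crebbpfl/+ Cg1-Cre) had 1 (n = 5, 2 males) and wild-type mice (WT, Crebbp+/+ Cg1-Cre) had 0 (n = 4, 1 male). All groups carried the Cg1-Cre deletor, which is switched on in B cells after activation, so Crebbp is lost only in cells that recombine. Age was 8 to 12 weeks and the background C57BL/6x129Sv in every group, with sheep red blood cells given on day 0 and again on day 5 and spleens taken on day 12. CD95, one of the sorting antigens, is the product of Fas, itself a p53 target. Because the measurement is of bulk RNA, fewer cells with a transcript and less of it per cell cannot be told apart.

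Crebbp checked the KO labels. On the probe set that differed most it read 9.35, 9.29, 9.56, 9.45 and 9.44 in KO mice, 10.20, 10.01, 9.90, 9.81 and 9.82 in HET mice, and 10.34, 10.36, 10.19 and 10.28 in WT mice (log2 intensity). All KO arrays were below all HET and WT arrays, with a KO against WT change of -0.86 (SE 0.10, limma adjusted p = 0.00168 over all probe sets). HET and WT arrays overlapped, HET 1 at 10.20 being above WT 3 at 10.19, with a HET change of -0.34 (SE 0.09) that was not called. On the brightest Crebbp probe set all KO arrays were below all WT arrays but overlapped the HET arrays. This probe set and the remaining ones had KO changes of -0.41, -0.47 and -0.30. Limma over all probe sets did not call them (adjusted p = 0.136, 0.0954 and 0.703). On the dimmest of them KO and WT arrays overlapped, KO 4 at 7.44 being above WT 1 at 7.35. By its median correlation with the rest, KO 3 stood apart at 0.979, where all other arrays lay between 0.984 and 0.990. Of the B cell and germinal centre markers, 5 of 5 named in each list were above the filter. The dimmest was Pax5, at 7.74 in KO, 7.55 in HET and 7.50 in WT. Limma called 0 of them in KO against WT, where 4 of 5 B cell and 3 of 5 germinal centre markers had a negative change. Cd79a was lower by 0.18 (SE 0.06, limma adjusted p = 0.144), its KO and WT arrays not overlapping (6.51% of all genes). Markers of NK cells and erythroid cells were all below the filter, as were 3 of 5 T cell and 4 of 6 myeloid markers. The mean T cell marker level was 5.70 to 6.81 in KO, 5.67 to 6.45 in HET and 5.85 to 6.21 in WT arrays, and that of myeloid markers 5.96 to 6.76, 5.68 to 6.63 and 5.88 to 6.86 in KO, HET and WT arrays. KO 1 had the highest T cell and NK cell means of the KO arrays, the NK cell mean reading 5.97 there. The plasma cell marker mean was 9.82 to 10.1 in KO, 9.81 to 10.2 in HET and 9.83 to 9.99 in WT arrays. Of its 4 genes only Sdc1 was called, higher in KO than in WT by 0.81 (SE 0.19, limma adjusted p = 0.0404). The other 3 had negative KO changes and were not called, Prdm1 at -0.28, Xbp1 at -0.15 and Jchain at -0.06. The part of these cells in the results below was not tested.

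p53 binds DNA as a tetramer at pairs of a short half-site, and the promoter stretches that hold one are shown because they mark which of these genes have the recognition letters close to their start. Promoter windows of 250 bases before to 50 bases after the gene start (RefSeq, GRCm38.p6) were found for 7 of the 9 measured genes, with none for Zmat3 or Trp53inp1. They were searched for the p53 half-site consensus, which reads the same on both strands. It was present in 7 of the 10 windows, against 8.36% of all 32851 windows of that length, and the 2 overlapping windows of Aen share 1 match. The 7 windows came from 6 of the 7 genes. Cdkn1a and Sesn1 each had a match in only 1 of their 2 windows. Because the genes were listed as p53 targets, the comparison is a description and not a test. Phlda3 was the gene without a match, which says only that these letters are not in this window. Cdkn1a had 2 matches, both in the stretch shown for it, where only the one nearer the gene start is in capitals. Stretches of 60 bases around a match follow, 5′ to 3′ on the gene's strand, with 1 half-site each in capitals. They lie at chr17:29090903-29090962 (+) for Cdkn1a, chr10:117710910-117710969 (-) for Mdm2, chr11:40755437-40755496 (-) for Ccng1, chr6:67037413-67037472 (-) for Gadd45a, chr10:41887241-41887300 (+) for Sesn1 and chr7:78895912-78895971 (+) for Aen.
Cdkn1a: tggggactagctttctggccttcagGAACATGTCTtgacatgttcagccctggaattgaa
Mdm2: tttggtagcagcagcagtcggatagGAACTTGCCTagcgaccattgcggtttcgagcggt
Ccng1: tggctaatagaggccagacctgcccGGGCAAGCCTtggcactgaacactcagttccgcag
Gadd45a: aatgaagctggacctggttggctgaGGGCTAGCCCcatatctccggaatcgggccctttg
Sesn1: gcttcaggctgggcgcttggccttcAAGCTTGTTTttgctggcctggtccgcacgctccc
Aen: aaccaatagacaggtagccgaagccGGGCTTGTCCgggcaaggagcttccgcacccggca
The matches describe the sequence and were not tested for p53 binding in these cells.

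The p53 targets had no common direction in KO against WT cells, and Zmat3 was the only one of them to pass the test. In KO against WT, 1 of the 8 tested genes was called, Zmat3, which was higher. Over all genes 249 of 10225 (2.44%) were called at a Benjamini-Hochberg adjusted p of 0.05 in limma, 120 of them higher (1.17%). Of the 8 genes 4 had a positive and 4 a negative change, with a median of 0.03, against -0.0027 over all genes tested. The median size of change was 0.0782, against 0.0844 over all genes. At an unadjusted p under 0.05 there were 3 of 8, Zmat3, Ccng1 and Gadd45a, where 13.1% of all genes passed, and they did not share a direction, since Gadd45a was lower. Tested one probe set at a time over 45037 probe sets, 0 of 21 were called in limma (0.315% of all were), with 4 at an unadjusted p under 0.05 (6.75% of all). In HET against WT 0 of 8 genes were called and 0 passed unadjusted, as 0 of 10225 were called and 2.74% passed unadjusted over all genes. In KO against HET 0 of 8 genes were called (0.264% of all), and 1, Zmat3, passed unadjusted (6.39% of all). Of the 21 probe sets limma called 0 in either of these comparisons, with 0 at an unadjusted p under 0.05 in HET against WT (2.28% of all) and 2 in KO against HET (3.86% of all). With the number of floxed alleles as a trend, 1 of 8 was called, again Zmat3, which was higher (3.04% of all genes were called, 1.42% as higher). The KO and HET comparisons share the WT arrays.

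**Figure D1:**
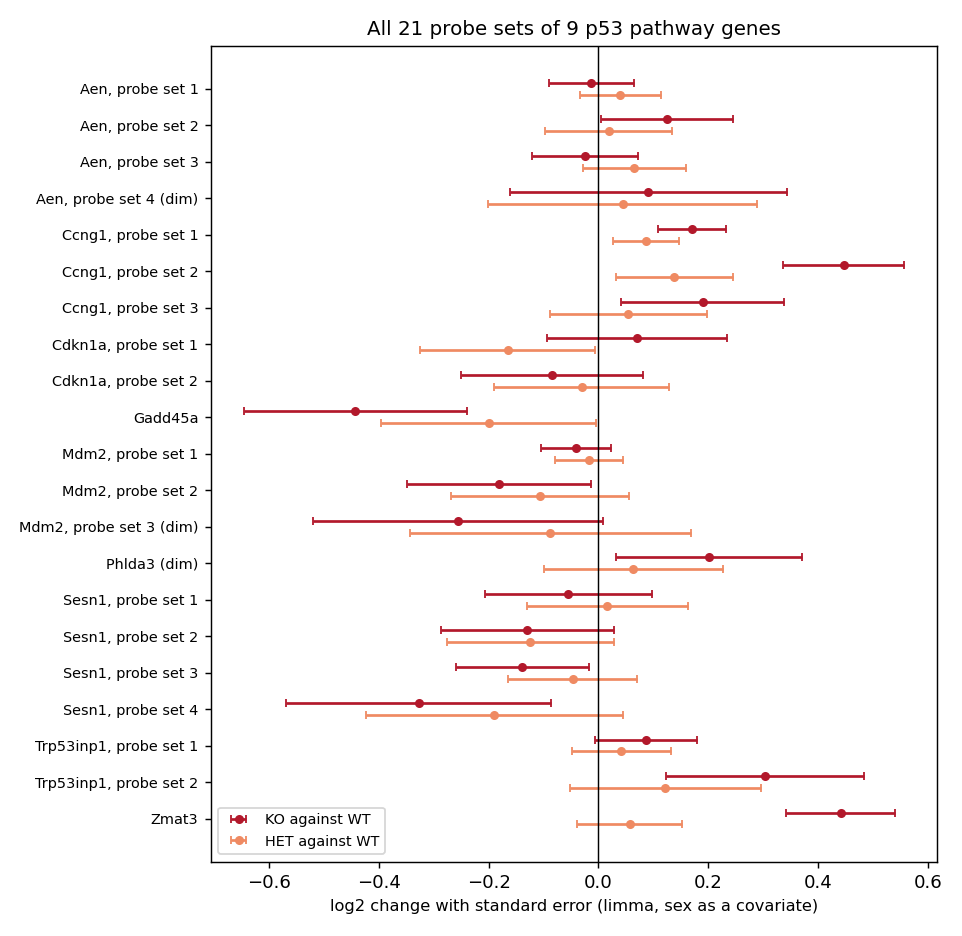
Log2 change (x axis) of each of the 21 probe sets (rows) in KO against WT (red) and HET against WT (orange), with bars for the limma standard error; "dim" marks a mean below the filter. In KO against WT the second Ccng1 probe set (0.45) and Zmat3 (0.44) lie farthest to the right and Gadd45a (-0.44) farthest to the left, with the other probe sets between -0.33 and 0.30.

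Among the genes that feed back on p53, Mdm2, whose product degrades p53 and whose own transcription p53 raises, did not pass the test on any of its 3 probe sets. Its brightest probe set read 12.45, 12.33, 12.36, 12.36 and 12.44 in KO mice, 12.43, 12.49, 12.39, 12.37 and 12.38 in HET mice, and 12.43, 12.39, 12.48 and 12.42 in WT mice. The groups overlapped throughout. Its KO change was -0.04 (SE 0.05, limma adjusted p = 0.868), with a 95% interval from -0.16 to 0.08, or 0.895 to 1.05-fold. The spread of this probe set within groups, an SD of 0.0482, stood at percentile 1.92 of all tested genes. The second probe set, also above the filter, read 8.88, 8.33, 8.60, 8.87 and 9.04 in KO mice, 8.96, 8.92, 8.53, 8.53 and 9.14 in HET mice, and 8.94, 8.95, 8.73 and 9.06 in WT mice. It varied more between mice than the brightest one, with SDs of 0.28 in KO, 0.27 in HET and 0.14 in WT, and its KO change was -0.18 (SE 0.17). The third gave -0.26 (SE 0.26) on a signal below the filter.

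Ccng1 encodes cyclin G1, which recruits a phosphatase that acts on MDM2, and its KO change was positive on all 3 probe sets without passing the test. On its brightest probe set it read 12.00, 12.07, 11.94, 12.05 and 12.02 in KO mice, 11.90, 11.90, 11.94, 11.98 and 11.94 in HET mice, and 11.90, 11.85, 11.81 and 11.82 in WT mice. Every KO array was above every WT array, and the HET arrays overlapped the KO arrays, the lowest of them just above the highest WT array. The KO change was 0.17 (SE 0.05, 1.13-fold, limma adjusted p = 0.129), the HET change 0.09 (SE 0.05, adjusted p = 1) and the trend per allele 0.09 (SE 0.02, adjusted p = 0.0872).

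A second, dimmer probe set of Ccng1 read 8.92, 8.89, 9.12, 9.11 and 9.10 in KO mice, 8.65, 8.60, 8.71, 8.70 and 8.94 in HET mice, and 8.64, 8.48, 8.37 and 8.84 in WT mice. Here too no KO array overlapped a WT array. Its KO change was 0.45 (SE 0.11, limma adjusted p = 0.149 over 45037 probe sets), larger than that of the bright probe set. The third gave 0.19 (SE 0.15) with overlapping groups. All 3 probe sets share a source accession, so they are not independent readings. KO and WT arrays did not overlap for 3 of the 21 probe sets, these 2 and Zmat3, against 3.32% of all probe sets. KO and HET arrays did not overlap for 1 (Zmat3, against 0.755% of all), and HET and WT arrays did not overlap for 1 (the bright Ccng1 probe set, against 1.03% of all). Counted by gene, KO and WT arrays did not overlap for 2 of 8 (6.51% of all genes), HET and WT arrays for 1 (1.5%) and KO and HET arrays for 1 (1.43%).

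Zmat3, a zinc finger protein that binds RNA and is a p53 target, was the member that rose. It has 1 probe set, which read 10.41, 10.19, 10.19, 10.41 and 10.40 in KO mice, 9.83, 9.93, 9.72, 10.15 and 9.94 in HET mice, and 9.78, 9.87, 9.67 and 10.03 in WT mice. Every KO array was above every HET and WT array, while HET and WT arrays overlapped. Zmat3 averaged 10.32 ± 0.12 (SD, n = 5) in KO, 9.91 ± 0.16 (SD, n = 5) in HET and 9.84 ± 0.15 (SD, n = 4) in WT.

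The KO change of Zmat3 was 0.44 (SE 0.09), or 1.36-fold with a 95% interval from 1.18 to 1.56, with limma adjusted p = 0.0254, rank 151 of 10225 by p. The HET change was 0.06 (SE 0.09, adjusted p = 1), with a 95% interval from -0.14 to 0.25. KO exceeded HET by 0.38 (SE 0.09), which ranked 55 by p but did not pass (adjusted p = 0.111). The trend was 0.23 per allele (SE 0.05, adjusted p = 0.0319).

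Adjusted over all 45037 probe sets the KO change of Zmat3 did not pass (adjusted p = 0.104). The gene-level call was lost without WT 1 (adjusted p = 0.0693), WT 3 (0.0817), WT 4 (0.0503) or KO 4 (0.077), while the change stayed between 0.38 and 0.50 in the 14 fits that left out 1 array. It was 0.46 with adjusted p = 0.0356 without KO 3, the array that stood apart, and 0.53 with adjusted p = 0.0981 in females alone. The trend was lost without WT 1, WT 3, KO 1, KO 3, KO 4 or KO 5, at 0.18 to 0.27 per allele over the 14 fits.

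**Figure D2:**
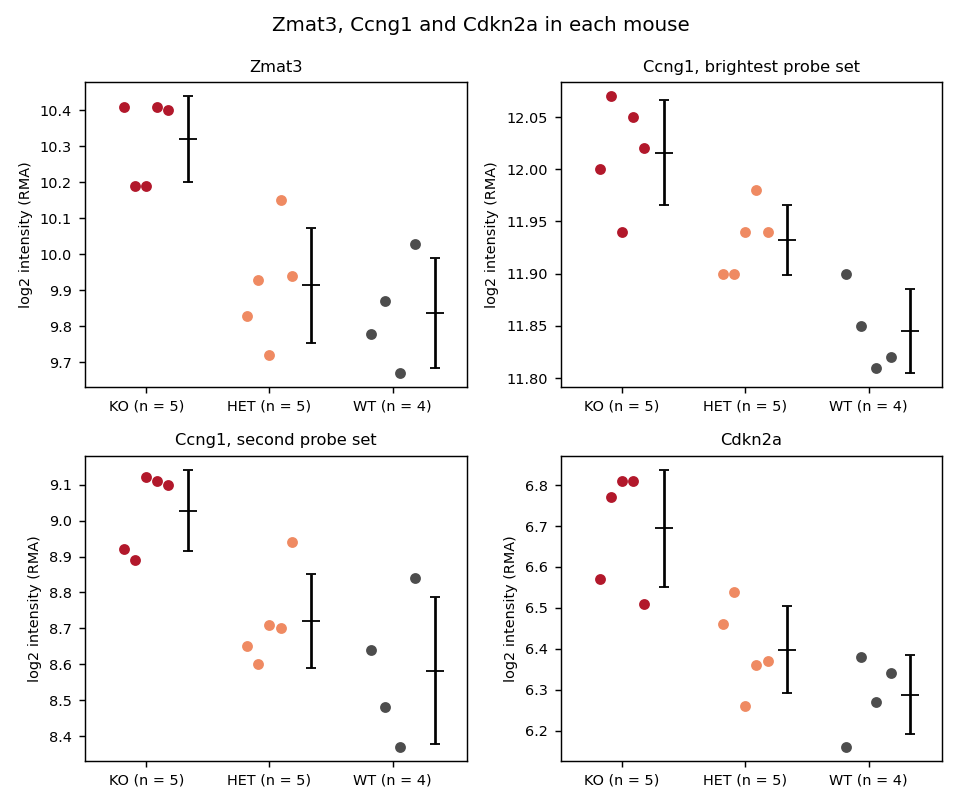
Log2 intensity (y axis) of Zmat3, of 2 probe sets of Ccng1 and of Cdkn2a in each mouse (points), by genotype (x axis), with the mean and SD of each group beside its points. The KO points lie above every WT point in all 4 panels, and above every HET point for Zmat3 only.

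Of the 10224 other genes tested, those whose values followed Zmat3 most closely over the 14 arrays were Dcbld2 (Pearson r = 0.939), a neuropilin-like membrane protein, Plekha1 (0.929), an adaptor that binds phosphoinositides, and Evi5 (0.915), a regulator of Rab GTPases. Spearman's rho was 0.93, 0.912 and 0.899. These are descriptions, chosen as the highest of many, and the 3 share with Zmat3 the difference between genotypes, Dcbld2 being higher in KO than WT by 0.57, Plekha1 by 0.49 and Evi5 by 0.99. With each group's mean removed r was 0.848, 0.758 and 0.753.

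None of the genes that halt the cell cycle passed the test. Cdkn1a encodes p21, the cyclin-dependent kinase inhibitor that carries out p53-dependent arrest, and its promoter stretch above holds 2 matches to the half-site. On its brighter probe set it read 6.99, 7.11, 7.02, 7.43 and 7.52 in KO mice, 6.96, 7.07, 6.56, 7.23 and 6.82 in HET mice, and 6.93, 6.95, 6.78 and 7.56 in WT mice. The highest of all 14 arrays was WT 4, the male WT mouse, and the groups overlapped. The KO change was 0.07 (SE 0.16, limma adjusted p = 0.936), with a 95% interval of 0.825 to 1.34-fold, and it was -0.07 without KO 4 and 0.25 without WT 4. The second probe set gave -0.08 (SE 0.17). In HET the change was -0.17 (SE 0.16, adjusted p = 1). Its SD within groups, 0.279, stood at percentile 89.9 of all tested genes.

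Gadd45a, a stress-induced gene whose product binds PCNA and p21 and activates stress kinases, had the largest negative value. It read 10.31, 9.95, 9.27, 9.92 and 10.37 in KO mice, 10.36, 10.48, 9.80, 10.01 and 10.21 in HET mice, and 10.45, 10.32, 10.45 and 10.16 in WT mice. The lowest reading belonged to KO 3, and KO 1 and KO 5 lay within the WT range. The KO change was -0.44 (SE 0.20, limma adjusted p = 0.364) and the HET change -0.20 (SE 0.19, adjusted p = 1). Without KO 3 the KO change was -0.21 (adjusted p = 0.609), the smallest of the 14 fits that left out 1 array, where it reached -0.63. In females alone it was -0.81 (adjusted p = 0.18). Of the genes that handling and stress induce, 6 were tested, 5 of them with a negative KO change, with a median of -0.40. Of these limma called 0 (2.44% of all genes), and 2 had an unadjusted p under 0.05 (13.1% of all genes). The mean level of that list was 7.14 to 8.55 in KO, 6.90 to 8.62 in HET and 7.79 to 8.54 in WT arrays. Junb, an AP-1 subunit, had -0.51 (SE 0.15, limma adjusted p = 0.102, and 0.037 without HET 2), and Ier2, an immediate early gene, -0.28 (SE 0.13, adjusted p = 0.362). Without WT 4 the Ier2 change was -0.14. The part of handling in the Gadd45a value was not tested.

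Sesn1 encodes sestrin 1, which restrains mTORC1 and oxidative stress, and it varied widely among the KO mice. Its brightest probe set read 10.10, 9.86, 10.26, 9.77 and 9.38 in KO mice, 10.03, 9.93, 10.05, 9.87 and 9.88 in HET mice, and 9.87, 9.81, 9.96 and 10.12 in WT mice. Both the highest and the lowest of the 14 arrays were KO mice, KO 3 and KO 5. KO 5 was also the lowest array on 2 of the other 3 probe sets, at 9.24 and 8.86. The KO change was -0.06 (SE 0.15, limma adjusted p = 0.946), which was -0.20 without KO 3 and 0.04 without KO 5. The other probe sets gave -0.13 (SE 0.16), -0.14 (SE 0.12) and -0.33 (SE 0.24), so that all 4 were negative and none passed.

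**Figure D3:**
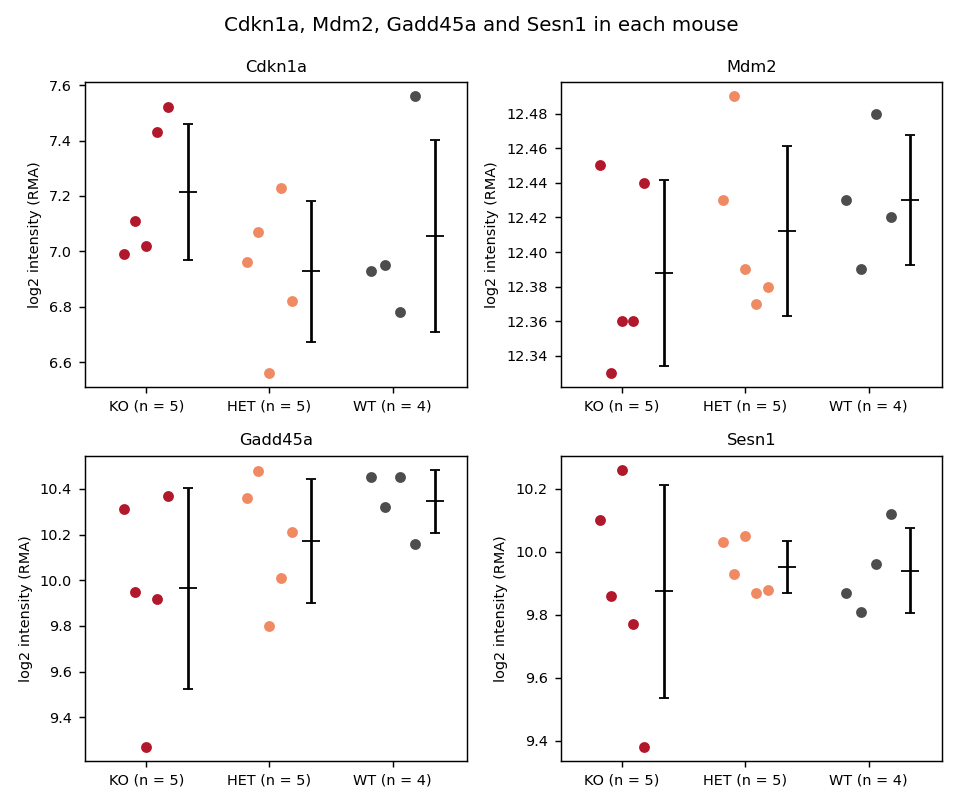
Log2 intensity (y axis) of Cdkn1a, Mdm2, Gadd45a and Sesn1 in each mouse (points) by genotype (x axis), with the mean and SD of each group beside its points. The genotypes overlap in every panel, KO 3 is the lowest point of Gadd45a at 9.27 and KO 5 that of Sesn1 at 9.38; each panel has its own scale.

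None of the genes linked to cell death passed either. Aen encodes a nuclease that p53 raises during apoptosis. It read 11.45, 11.45, 11.68, 11.45 and 11.51 in KO mice, 11.68, 11.65, 11.59, 11.45 and 11.52 in HET mice, and 11.56, 11.61, 11.58 and 11.44 in WT mice. Apart from KO 3 the KO arrays lay in the lower part of the WT range, and the change was -0.01 (SE 0.07, limma adjusted p = 0.974), with a 95% interval from -0.16 to 0.14. Its other 3 probe sets gave 0.12, -0.02 and 0.09, the last on a dim signal.

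Trp53inp1 encodes a stress protein that promotes p53 activity and autophagy. It read 12.39, 12.43, 12.25, 12.65 and 12.53 in KO mice, 12.37, 12.23, 12.37, 12.52 and 12.49 in HET mice, and 12.34, 12.29, 12.40 and 12.37 in WT mice. KO 4 was the highest and KO 3 below every WT array, and the change was 0.09 (SE 0.09, limma adjusted p = 0.797). A dimmer probe set gave 0.30 (SE 0.18). Phlda3, whose product competes with the kinase AKT for membrane lipids, was below the filter, at 5.33, 5.30, 5.55, 5.42 and 6.10 in KO mice, 5.39, 5.37, 5.28, 5.58 and 5.41 in HET mice, and 5.54, 5.47, 5.43 and 4.96 in WT mice. Fitted among all probe sets it differed by 0.20 (SE 0.17, adjusted p = 0.985) between KO and WT.

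**Figure D4:**
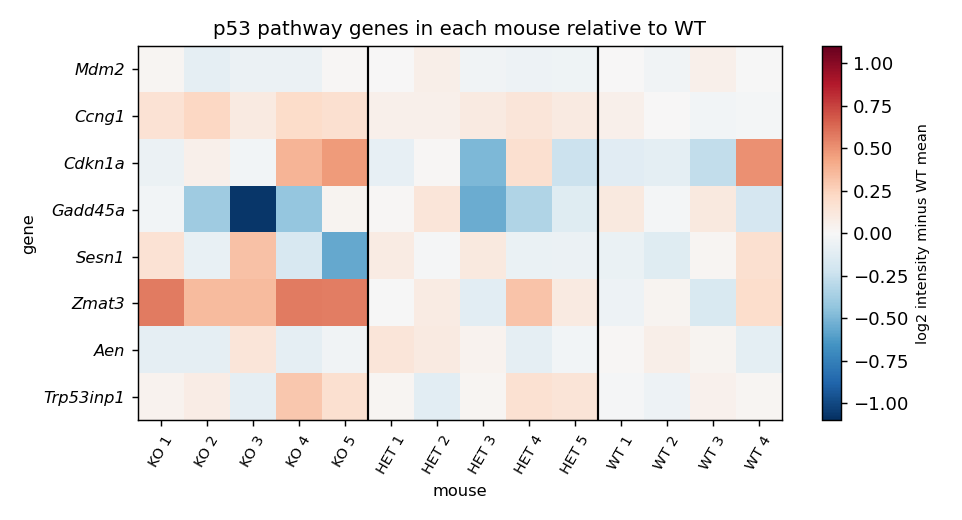
Log2 intensity minus the WT mean (colour) of the probe set that stands for each of the 8 tested genes (rows) in each mouse (columns, separated by genotype). Zmat3 and Ccng1 are above the WT mean in all 5 KO mice. Cdkn1a varies from mouse to mouse within each genotype, Gadd45a mostly within KO and HET, and Sesn1 mostly within KO.

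Sex was not balanced between the genotypes, with 3 of 5 KO, 2 of 5 HET and 1 of 4 WT mice male. The male minus female term of the same limma fit called 0 of the 8 genes (0 at an unadjusted p under 0.05) and 3 genes of 10225. It was largest for Cdkn1a, at 0.26 (limma adjusted p = 0.769). For Zmat3 it was 0.12 (limma adjusted p = 0.769).

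Upstream of p53, Cdkn2a was higher in KO cells. It encodes the INK4a inhibitor of cyclin-dependent kinases and, in another reading frame, ARF, which keeps MDM2 from p53, and the array does not say which was measured. Cdkn2a read 6.57, 6.77, 6.81, 6.81 and 6.51 in KO mice, 6.46, 6.54, 6.26, 6.36 and 6.37 in HET mice, and 6.16, 6.38, 6.27 and 6.34 in WT mice. Every KO array was above every WT array, and the HET arrays overlapped both. The KO change was 0.43 (SE 0.09, limma adjusted p = 0.0216), the HET change 0.12 (SE 0.09, adjusted p = 1) and the trend 0.22 per allele (SE 0.05, adjusted p = 0.0173). The signal was dim, with HET and WT means of 6.40 and 6.29 below the filter of 6.43, so Cdkn2a entered the test through its KO arrays. With no filter it was still called (adjusted p = 0.0437), but not in the fit over all 45037 probe sets (0.0954) or with only the groups compared (0.0699). It was not called without WT 1 (adjusted p = 0.0659), WT 3 (0.0674), KO 3 (0.052) or KO 4 (0.067), nor in females alone (0.0785), and its trend was lost without KO 4 (0.0596).

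Apart from Cdkn2a and the targeted gene Crebbp, no listed regulator of p53 passed. Of 19 listed regulators, all of them tested, 1 was called higher, Cdkn2a, and 1 lower, Crebbp. Over all genes 2.44% were called, 1.17% as higher. The KO change of Crebbp was -0.41 (SE 0.09, limma adjusted p = 0.0372) on its brightest probe set. The regulator list holds the DNA damage kinases Atm, Atr, Chek1 and Chek2, the MDM2 partner Mdm4, the phosphatase Ppm1d and the deubiquitinase Usp7. Its median KO change was 0.01, with 11 positive and 8 negative values, and its HET median was -0.01 with 0 called. On that probe set Crebbp was not called without KO 1, KO 2, KO 3, HET 3 or any 1 of the 4 WT arrays, at adjusted p of 0.0539 to 0.0931, with changes between -0.45 and -0.31.

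No further p53 target was called. Of 36 listed genes, 28 were tested, and limma called 0 (2.44% of all genes). At an unadjusted p under 0.05 there were 2 higher and 4 lower, where 13.1% of all genes passed in either direction. There were 11 positive and 17 negative KO changes (39.3% positive, against 49% of all genes) with a median of -0.10, against -0.0027 over all genes. In HET the median was -0.01. The smallest p-values were those of Ephx1, an epoxide hydrolase, at -0.59 (SE 0.23, limma adjusted p = 0.253), and Ercc5, an endonuclease of nucleotide excision repair, at 0.23 (SE 0.09, adjusted p = 0.285). Ephx1 read 9.15, 9.15, 9.59, 8.47 and 8.37 in KO mice, 9.41, 9.52, 9.63, 9.16 and 8.97 in HET mice, and 9.60, 9.57, 9.49 and 9.61 in WT mice. KO 4 and KO 5 were the lowest and KO 3 lay within the WT range. The Ephx1 change was -0.39 without KO 4 and -0.83 without KO 3 (adjusted p = 0.0548). Fas, the death receptor used in the sort and named here after its values were seen, had -0.22 (SE 0.09, adjusted p = 0.323).

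**Figure D5:**
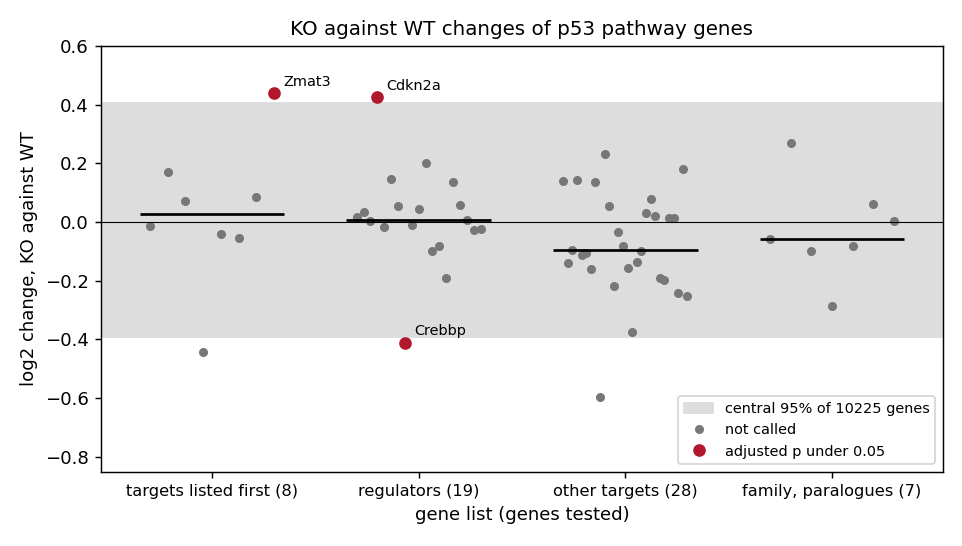
Log2 change in KO against WT (y axis) of every tested gene (points) in the p53 target list described first, the regulators, the other targets and the p53 family with its paralogues (x axis, genes tested in parentheses), with the median of each list as a line. The grey band runs from -0.39 to 0.40 and holds the central 95% of 10225 genes; Zmat3, Cdkn2a and Crebbp, in red, are called and lie just outside it, as do Gadd45a at -0.44 and Ephx1 at -0.59, which are not called.

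Relatives of p53 and of its targets gave 0 calls in limma among 7 tested genes of 9, with a median KO change of -0.06. At an unadjusted p under 0.05 there was 1 gene (13.1% of all genes passed). That gene was Cdkn1b, encoding the p21 relative p27, which read 10.13, 10.17, 9.74, 10.09 and 10.30 in KO mice, 9.96, 9.88, 9.75, 10.06 and 9.88 in HET mice, and 9.76, 9.75, 9.68 and 9.80 in WT mice. Only KO 3 fell within the WT range. Its change was 0.27 (SE 0.08, limma adjusted p = 0.116), and it was called without KO 3, at 0.36 (adjusted p = 0.0154), and with array weights on all 14 arrays, at 0.30 (adjusted p = 0.0252). Its second probe set gave 0.32 (SE 0.14). Sesn3, the next by p, had -0.08 (SE 0.07, adjusted p = 0.699), and -0.03 without WT 4.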

How the data were processed

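The values deposited by the authors are log2 intensities of 45101 probe sets on 14 arrays. RMA is named in the submitters' processing notes, without a version. Since it makes the arrays share 1 distribution, a shift of most genes at once would be missed. Per the labels' protocols, 25 ng of RNA per mouse was amplified before labelling. The number of arrays limits the precision.

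Symbols came from the platform annotation, checked against RefSeq by gene identifier. The probe set with the highest mean stood for a gene, and genes with a mean above 6.43, the median over non-control probe sets, were tested. Group and sex were fitted with limma 3.58.1 in R 4.3.3 over all 14 arrays, and again over all 45037 non-control probe sets, with Benjamini-Hochberg adjustment at 0.05. The fits were tested on simulated data. The members and lists were chosen with earlier results of these data known. The text names all members, the called genes of each further list or its 2 smallest p-values, Crebbp, and the 3 genes most like a called member.

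Alternatives changed the filter, probe set choice, normalization, sex term, variance model, array weights, groups fitted, threshold and arrays. Same-numbered mice were not treated as pairs in the main fit. Of 13 same-numbered pairs of arrays, 9 deviated together (r over 0.1), with r from -0.175 to 0.383. Differently numbered pairs were not compared, so these values cannot decide whether the numbers mark pairs. A fit with the replicate number as a block is given below.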

Additional observations from a re-analysis of the deposited data

Results flagged for a closer look

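2 of the 63 groups of member readings had an array that stood apart from the others of its genotype (a gap to the nearest above Dixon's 95% critical value), and chance alone gives about 1 in 20 such groups. On the brightest probe set of Aen, KO 3 read 11.68, above the 11.45 to 11.51 of the other KO arrays. On the dimmest probe set of Aen, HET 3 read 5.23, below the 5.88 to 6.01 of the other HET arrays, on a signal under the filter.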

How the results depend on the processing

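The KO change of Zmat3 was positive under all 29 settings run (0.38 to 0.54, adjusted p 0.012 to 0.0981) and called under 22 of them. Not all of these settings could alter it. Zmat3 has 1 probe set, so the filter, probe set choice and variance model left its change at 0.44 and moved only its adjusted p. The looser threshold of 0.1 could not lose the call. The count of tested members called in KO against WT, 1 (Zmat3), was 0 in females alone, with only the groups compared, and without KO 3 and WT 4 (chosen after seeing the data), all with fewer arrays. For the trend that count, also 1 (Zmat3), was 0 with no filter, the probe set with the largest variance, females alone, array weights, or without KO 3 and WT 4. It was 2 (Ccng1 and Zmat3) with no sex term, with limma's intensity trend, or at an adjusted p of 0.1. Both counts ran from 0 to 1 when 1 array was left out. Array weights called 1 member (Zmat3) in KO against HET, and a filter at the upper quartile called 1 of the probe sets (Zmat3) in KO against WT. The replicate number as a block left the KO against WT count at 1, with Zmat3 at 0.46 (adjusted p = 0.0189). Over all genes tested, the count of calls ran from 75 to 424 in KO against WT (249 as reported), 0 to 6 in HET against WT (0), 0 to 72 in KO against HET (27) and 82 to 508 for the trend (311). The cause was not tested, except that a filter changes how many genes are tested.

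Reversed signs were all of changes that were not called, and their cause was not tested. With the probe set of largest variance, Sesn3 (KO against WT) was 0.0235 and Sesn1 (HET against WT) -0.19. With the mean of all probe sets, KO against WT was -0.00726 for Cdkn1a and 0.0446 for Aen, HET against WT -0.0863 for Sesn1, KO against HET 0.00278 for Aen, and the trend -0.000282 for Cdkn1a and 0.0216 for Aen. In females alone Sesn1 was 0.14 (KO against WT), 0.0628 (KO against HET) and 0.0682 (trend), and Sesn3 0.0146 (KO against WT). In HET against WT, Mdm2 was 0.00582 with array weights, Sesn1 -0.00284 with only the groups compared, and without KO 3 and WT 4 Cdkn1a 0.00626 and Aen -0.00529. Leaving out 1 array at a time, KO against WT ran from -0.0749 to 0.25 for Cdkn1a, -0.20 to 0.0658 for Sesn1, -0.0612 to 0.0284 for Aen and -0.000839 to 0.16 for Trp53inp1. HET against WT ran from -0.0284 to 0.12 for Sesn1, and KO against HET from -0.20 to 0.0412 for Sesn1 and -0.0331 to 0.11 for Trp53inp1. The trend ran from -0.0415 to 0.14 for Cdkn1a, -0.0962 to 0.0225 for Sesn1 and -0.0288 to 0.0151 for Aen. Signals near background limit Phlda3, Cdkn2a and the dim probe sets of Aen and Mdm2.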
